A study of Mus musculus with 16 samples.

Results

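The genes described here move sodium, chloride and water across the epithelium of the mouse caecum, a pouch of the large intestine. They are 9 named genes found by symbol among the 24091 genes of the deposited expression table, and 8 of them passed the filter on low values. Slc9a3, Slc9a2, Slc26a3, Scnn1a, Atp12a and Aqp8 serve absorption, Cftr and Slc12a2 serve chloride secretion, and Atp1b1 is a subunit of the sodium pump on which both depend. The RNA came from isolated caecal epithelial cells of C57BL/6 mice and was read in 9 libraries, 3 in each of 3 groups. The first group drank ampicillin, an antibiotic, at 1 g/L for 7 days and received a gavage of tributyrin, an ester of glycerol with butyrate, 6 h before tissue was taken. A second group drank the same ampicillin and received a mock gavage of 25% glycerol. The third group, the vehicle group, received the mock gavage and no ampicillin. Water of all groups held Splenda, a sweetener, at 10 g/L. Age, sex and the tributyrin dose are not in the labels, nor do the labels say whether a library is 1 mouse or a pool, and p-values therefore reflect only the spread among these libraries, which may be technical. The other 7 samples, of chromatin, were not analysed here.

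In the large intestine, sodium chloride is absorbed mainly by a pair of exchangers in the apical membrane that work in parallel. One takes up sodium in exchange for protons and the other takes up chloride in exchange for bicarbonate. The sodium channel ENaC adds an aldosterone-driven path, and water follows the salt. For secretion, chloride enters the cell at the base through the cotransporter Slc12a2, with the sodium pump and potassium channels keeping up the gradients, and leaves at the apex through the channel Cftr. In rats, butyrate and other short-chain fatty acids are known to stimulate colonic sodium chloride absorption and to raise Slc9a3 expression.

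Values are TPM, transcript abundances scaled to a common total and divided by transcript length, so levels can be compared between genes. Sequencing depth cannot be read from TPM and is unknown for all libraries. In the libraries, 17242 to 17722 genes had a TPM above 0. Log2 fold changes, given with their standard error, are of TPM + 1 and so come out too small for scarce genes. Means are given with SD over n = 3 libraries. A gene was said to have risen or fallen at an adjusted p under 0.05 in limma, with Benjamini-Hochberg adjustment over all 12155 genes tested. Epithelial markers were abundant in the cells: 13 absorptive colonocyte markers summed to between 36930 and 42652 TPM. Markers of fibroblasts, smooth muscle and neurons were near 0, with 6 fibroblast markers summing to at most 0.417 TPM and 6 smooth muscle and neuron markers to at most 0.398 TPM in a library. Markers of blood-borne cells were present at low levels, reaching 49.7 TPM for 8 T and intraepithelial lymphocyte markers, 51.4 TPM for 2 erythroid markers and 24.3 TPM for 8 myeloid markers in the highest library, and 5 endothelial markers reached 4.48 TPM. Most of the myeloid sum was Cd14, at up to 21.1 TPM, while Csf1r was at 0.112 TPM or less and S100a8 at 0 in all libraries. Most of the highest endothelial sum was Pecam1. In bulk RNA, fewer cells of a type and less RNA per cell cannot be told apart.

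The 8 detected genes spanned a wide range of levels. Slc26a3, the apical chloride-bicarbonate exchanger, and Atp1b1, the beta-1 subunit of the sodium pump, were the most abundant, ranking between 173 and 230 of the 24091 genes in every library. The water channel Aqp8 followed, ranking between 348 and 521, and then the sodium-proton exchanger Slc9a2. Slc9a3, the other apical sodium-proton exchanger, ranked between 1387 and 4585 of 24091, the widest span of ranks among the 8. With vehicle it stood below Cftr and Slc12a2 in mean level. In both ampicillin groups it stood above them, and its libraries did not overlap with those of Slc12a2. Libraries of neighbours in this order overlapped for Slc26a3 and Atp1b1 with vehicle and with ampicillin and mock, for Cftr and Slc9a3 with vehicle, and for Slc12a2 and Cftr with tributyrin. Scnn1a, the pore subunit alpha of ENaC, was the lowest detected gene in all 3 groups. Atp12a, a proton-potassium pump of the distal colon, was listed at 0 in all 9 libraries, so it has no test.

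**Figure D1:**
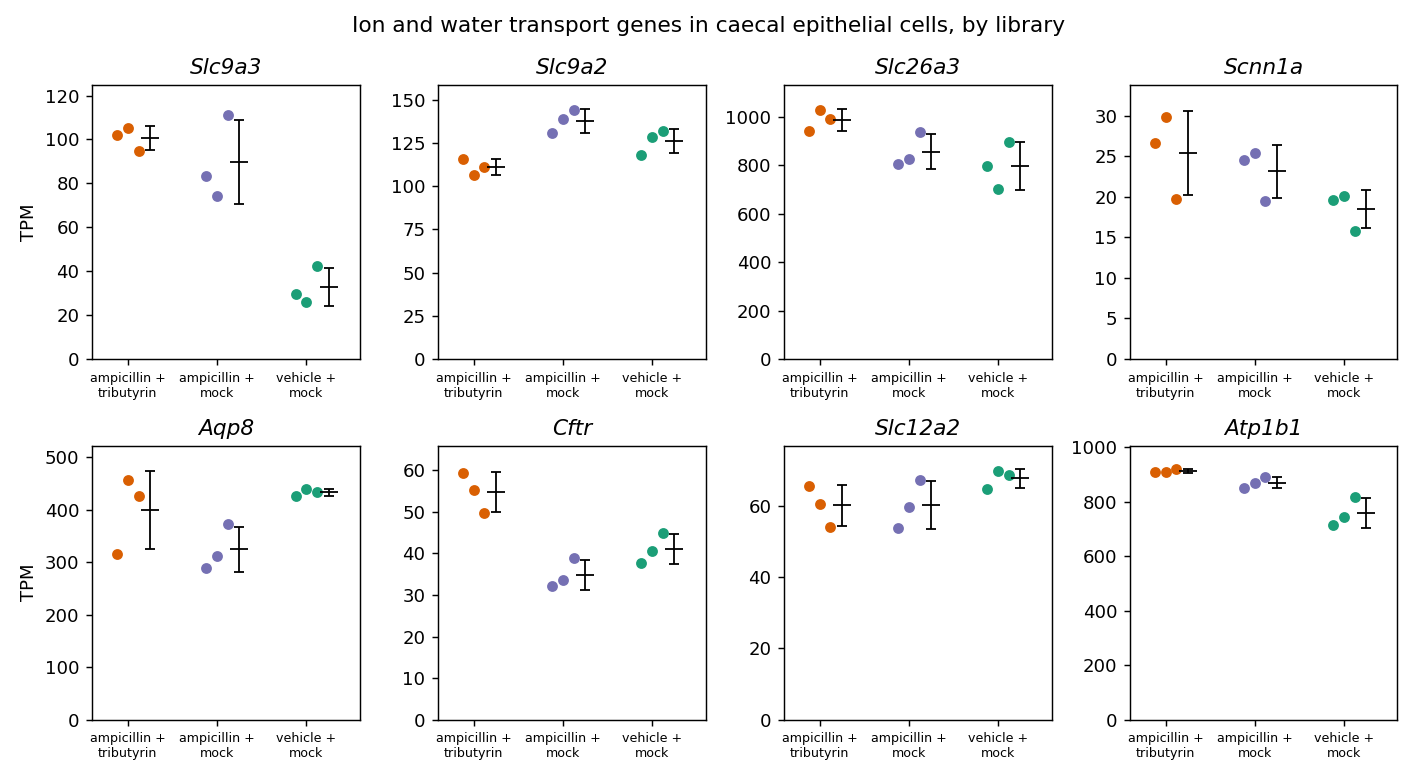
TPM of each of the 8 detected genes in each library (points), with the mean and SD of 3 libraries (bars), for ampicillin with tributyrin, ampicillin with mock and vehicle with mock, on axes that start at 0. The Slc9a3 libraries of both ampicillin groups sit at 74.3 TPM or more, above the vehicle libraries at 42.4 TPM or less, while Cftr is highest in the tributyrin libraries.

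The sequences before the transcription start are shown for 3 genes: Slc9a3, which rose with ampicillin, Cftr, which rose with tributyrin, and Slc26a3, the exchanger that works beside Slc9a3 and did not pass the test in either of those comparisons. Each is the 250 bases before the start on the plus strand, from RefSeq on build GRCm38.p6, at chr13:74121163-74121412 for Slc9a3, chr6:18170437-18170686 for Cftr and chr12:31437969-31438218 for Slc26a3. The starts used for Slc9a3 and Slc26a3 lie inside the annotated span of the gene. Capitals mark every GGGCGG (a GC box, bound by Sp factors) and every CACCC (bound by Kruppel-like factors) on either strand.
Slc9a3: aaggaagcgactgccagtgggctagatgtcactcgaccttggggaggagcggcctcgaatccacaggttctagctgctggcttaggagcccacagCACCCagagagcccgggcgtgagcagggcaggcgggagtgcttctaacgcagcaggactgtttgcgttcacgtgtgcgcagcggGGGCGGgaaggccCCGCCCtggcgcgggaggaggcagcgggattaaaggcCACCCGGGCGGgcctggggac
Cftr: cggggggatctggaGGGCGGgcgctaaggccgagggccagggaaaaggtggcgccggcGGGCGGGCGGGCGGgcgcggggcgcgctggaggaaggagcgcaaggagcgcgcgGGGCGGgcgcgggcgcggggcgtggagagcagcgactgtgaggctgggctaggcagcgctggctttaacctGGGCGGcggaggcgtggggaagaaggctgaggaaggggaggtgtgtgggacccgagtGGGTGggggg
Slc26a3: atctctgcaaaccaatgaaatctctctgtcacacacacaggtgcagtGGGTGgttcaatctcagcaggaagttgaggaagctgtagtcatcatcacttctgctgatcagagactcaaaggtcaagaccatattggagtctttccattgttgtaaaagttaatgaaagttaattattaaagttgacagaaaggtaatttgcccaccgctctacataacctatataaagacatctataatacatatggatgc
The window searched ran from 250 bases before to 50 bases after the start, and 5 of the 9 genes had one in the table. GGGCGG was found 3 times for Slc9a3, 6 times for Cftr, 3 of these overlapping each other, and 0 times for Slc26a3. Of all 32851 promoter windows, 35.7% held it. CACCC was found 2 times for Slc9a3 and 1 time each for Cftr and Slc26a3, and 57.5% of all windows held it. The GC content of the 250 bases was 67.6% for Slc9a3, 76.4% for Cftr and 38.8% for Slc26a3. The hypoxia core ACGTG was found in the Slc9a3 window on both strands at 1 place, since the site reads the same on both, and 19.6% of windows held a match. The CDX core TTTAT was found 1 time for Slc26a3 and 0 times for Slc9a3 and Cftr, against 40.0% of windows with a match. CAAAG, part of the HNF4 site, was found 1 time for Slc26a3 and 0 times for the other two, against 53.9% of windows, and AGAACA, part of the steroid receptor site, likewise 1 time and 0 times, against 19.0%. These matches describe the letters of the windows and were not tested against expression.

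The first comparison asked what ampicillin changed, both groups having the mock gavage. The sodium-proton exchanger Slc9a3 rose 2.74-fold in mean TPM, and of the other absorptive genes none passed the test. Atp1b1 rose by a small amount, and neither of the secretory genes passed. Of the 8 genes tested 2 rose and 0 fell, beside 21.3% of all genes tested that were called in either direction. For 3 of the 8 the 3 libraries of one group lay wholly above or below those of the other, Slc9a3 and Atp1b1 higher (22.6% of all genes tested were so placed) and Aqp8 lower (18.2%), together beside 40.8%.

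Slc9a3 (gene ID 105243, chromosome 13, 74086255 to 74169442, build mm10) exchanges luminal sodium for protons and is the main route of neutral sodium absorption in the gut. It had 83.6, 74.3 and 111 TPM in ampicillin replicates 1 to 3, against 29.6, 26.1 and 42.4 TPM in vehicle replicates 1 to 3. Every ampicillin library was above every vehicle library, and in each group replicate 3 was the highest. The log2 fold change was 1.44 ± 0.19 (adjusted p = 0.00116 in limma), which placed Slc9a3 at 92 from the top among the 12155 genes tested. It stayed called in all 20 alternative analyses, with adjusted p between 0.000170 and 0.00837. Of 8 markers of Paneth cells and the small intestine tested, 5 fell and 0 rose, beside 10.2% and 11.0% of all genes tested. Defa24, Defa17, Defa20, Itln1 and Apoa1 averaged under 1 TPM in both ampicillin groups and passed the filter only through the vehicle libraries. The filter thus weighted this count towards falls, and the count is no test of a change. All 13 summed to between 1526 and 1711 TPM with ampicillin, against 1635 to 2377 TPM with vehicle, but most of that was Fabp2, which was not called. Without Fabp2 the other 12 summed to 19.2, 17.1 and 18.2 TPM with ampicillin, against 47.9, 520.0 and 119 TPM with vehicle. Fabp6, a bile acid binding protein of the ileum, had 3.63, 2.22 and 3.24 TPM with ampicillin, against 12.3, 345 and 53.4 TPM with vehicle, and Defa24 and Defa17 were at 0 in all ampicillin libraries. The highest of these levels was in vehicle replicate 2, the library with the lowest Slc9a3 level, and without that library Slc9a3 rose by 1.29 (adjusted p = 0.00377 in limma). Leaving it out does not remove the marker difference, since vehicle replicates 1 and 3 also summed above every ampicillin library. The part of these markers in the Slc9a3 result was not tested.

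The related exchanger Slc9a2 (gene ID 226999, chromosome 1, 40681712 to 40768885), also an apical exchanger, had 131, 139 and 144 TPM with ampicillin, against 118, 129 and 132 TPM with vehicle. Its groups overlapped and its difference was small, at 0.13 ± 0.06 (95% interval -0.0083 to 0.27, adjusted p = 0.170 in limma). The TPM ratio of Slc9a3 to Slc9a2 within a library was 0.640, 0.535 and 0.771 with ampicillin, against 0.251, 0.203 and 0.322 with vehicle. Slc9a2 was the more abundant of the pair in every library, and the levels were closer in all ampicillin libraries than in any vehicle library.

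Slc26a3 (gene ID 13487, chromosome 12, 31433142 to 31473922) exchanges luminal chloride for bicarbonate and works in parallel with the sodium-proton exchangers. Ampicillin libraries had 803, 826 and 938 TPM, against 795, 700.4 and 895 TPM in vehicle libraries. The groups overlapped, and the difference was 0.11 ± 0.095 (95% interval -0.11 to 0.32, adjusted p = 0.482 in limma). The ratio of Slc26a3 to Slc9a3 therefore stood at 9.72 ± 1.35 with ampicillin and 24.9 ± 3.33 with vehicle (SD, n = 3 each), with no overlap between the groups.

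Aqp8 (gene ID 11833, chromosome 7, 123462294 to 123468003), an aquaporin of surface colonocytes, had 289, 312 and 372 TPM with ampicillin, against 427, 439 and 433 TPM with vehicle. All ampicillin libraries were below all vehicle libraries, and the vehicle libraries lay close together. The log2 fold change of -0.42 ± 0.14 missed the threshold (95% interval -0.74 to -0.11, adjusted p = 0.0634 in limma). It passed in 6 of 20 alternative analyses, among them those without ampicillin replicate 3 (adjusted p = 0.0462) and without tributyrin replicate 1 (adjusted p = 0.0165).

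Scnn1a (gene ID 20276, chromosome 6, 125314271 to 125344943) had 24.6, 25.4 and 19.4 TPM with ampicillin, against 19.6, 20.0 and 15.8 TPM with vehicle, and replicate 3 was the lowest of each group. The groups overlapped, at a log2 fold change of 0.31 ± 0.16 (adjusted p = 0.225 in limma). Its partner subunits were far lower: Scnn1b averaged 1.44 ± 0.177 TPM with ampicillin and 1.36 ± 0.225 TPM with vehicle, and Scnn1g averaged 0.158 ± 0.104 and 0.143 ± 0.0421 TPM in the same order. ENaC conducts best as an assembly of all 3 subunits.

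On the secretory side, Cftr (gene ID 12638, chromosome 6, 18170687 to 18322770), the chloride channel activated downstream of cAMP and cGMP, had 32.1, 33.6 and 39.0 TPM with ampicillin, against 37.6, 40.7 and 44.9 TPM with vehicle. The groups overlapped by 1 ampicillin library, and the difference of -0.23 ± 0.097 was not called (95% interval -0.45 to -0.0099, adjusted p = 0.132 in limma). Slc12a2 (gene ID 20496), the sodium-potassium-chloride cotransporter that loads chloride into the cell and is typical of crypt cells, had 53.7, 59.5 and 67.2 TPM with ampicillin, against 64.6, 69.5 and 68.6 TPM with vehicle. It was not called either (-0.17 ± 0.093, 95% interval -0.38 to 0.04, adjusted p = 0.236 in limma). The ratio of Cftr to Slc12a2 was 0.580 ± 0.0163 with ampicillin and 0.607 ± 0.0412 with vehicle (SD, n = 3 each), and the ranges overlapped.

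Atp1b1 (gene ID 11931, chromosome 1, 164437099 to 164458355) had 850.0, 869 and 891 TPM with ampicillin, against 713, 745 and 819 TPM with vehicle. The groups did not overlap, and the gene rose by 0.20 ± 0.055 (adjusted p = 0.0342 in limma), a 14.6% higher mean TPM. This call was lost without any 1 of 7 libraries, namely vehicle replicates 1 and 2, ampicillin replicates 1 to 3 and tributyrin replicates 1 and 2, with adjusted p between 0.0527 and 0.108. It was also lost with quantile normalization, with median ratio scaling and with no filter on low values, so it depended on the scaling too. The call held in 9 of 20 alternatives. RefSeq places another gene, Nme7, across part of the Atp1b1 span, and the strand setting of the counting is not given in the sources used here.

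**Figure D2:**
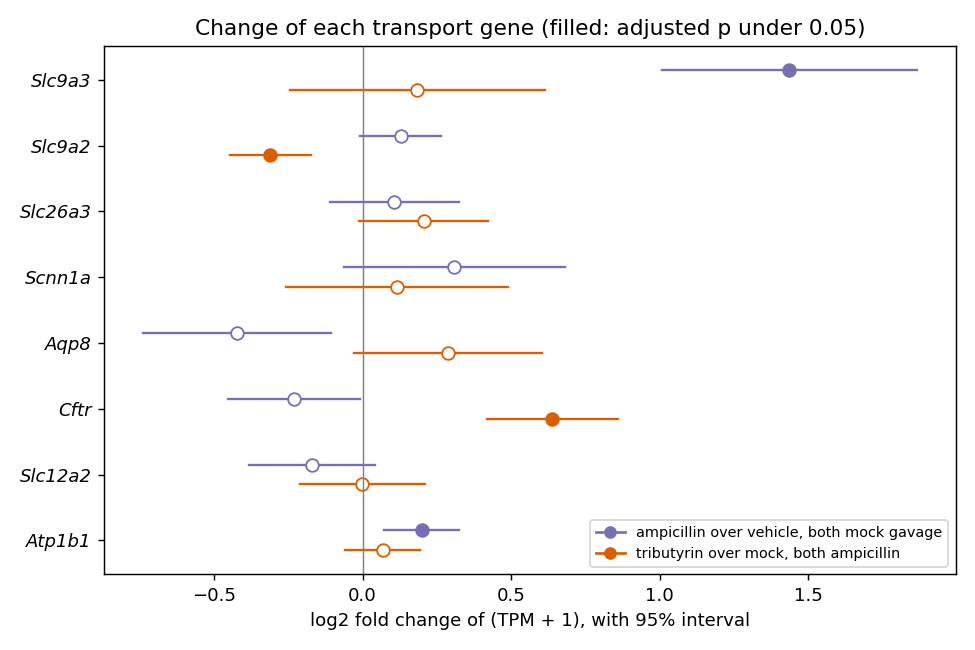
Log2 fold change of TPM + 1 for each of the 8 genes (points, filled where the adjusted p is under 0.05) with 95% intervals (lines), for ampicillin over vehicle and for tributyrin over mock. Slc9a3 stands at 1.44 in the first and 0.18 in the second, whereas Cftr stands at -0.23 and 0.64.

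Among 68 other genes of ion and water transport and its control, 53 were tested, and with ampicillin 12 fell and 2 rose, beside 10.2% and 11.0% of all genes tested. Their median log2 fold change was -0.04, against 0.02 over all genes tested. The fall touched regulators of the exchangers and of ENaC and 3 of 6 potassium channel genes. Usp2, a ubiquitin protease known to act on ENaC, averaged 19.2 ± 3.74 TPM with ampicillin and 49.2 ± 10.3 TPM with vehicle (log2 fold change -1.31 ± 0.18, adjusted p = 0.00130 in limma). Chp2, a calcium-binding cofactor of the sodium-proton exchangers, averaged 52.1 ± 2.08 TPM with ampicillin and 107 ± 21.1 TPM with vehicle (-0.998 ± 0.14, adjusted p = 0.00136). Both are partners of channels or exchangers in the membrane, and both were lower in all ampicillin libraries than in any vehicle library.

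Of 8 exchanger scaffolds and regulators tested, 3 fell and 0 rose: Chp2 and the brush border scaffolds Slc9a3r1 and Slc9a3r2. Slc9a3r1 averaged 356 ± 11.8 TPM with ampicillin and 395 ± 4.21 TPM with vehicle (-0.15 ± 0.041, adjusted p = 0.0317 in limma), and the scarcer Slc9a3r2 averaged 2.20 ± 0.398 and 3.47 ± 0.320 TPM in the same order (-0.49 ± 0.12, adjusted p = 0.0234). Of the potassium channels, Kcnk5 fell by 0.71 ± 0.079 on the log2 scale (adjusted p = 0.000473), and so did Kcnn4, a calcium-activated channel, by 0.32 ± 0.086 (adjusted p = 0.0315). Kcne3, the subunit that keeps the basolateral channel Kcnq1 open for chloride secretion, averaged 150 ± 8.68 TPM with ampicillin and 210 ± 22.8 TPM with vehicle (-0.48 ± 0.12, adjusted p = 0.0203). Kcnq1 itself averaged 44.2 ± 3.68 and 53.3 ± 0.598 TPM in the same order and was not called (adjusted p = 0.172).

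Also lower were Slc12a7, a potassium-chloride cotransporter (-0.24 ± 0.053), and Vipr1, a receptor for the secretagogue VIP (-0.24 ± 0.052). Ptger4, a prostaglandin E2 receptor, rose by 0.50 ± 0.092 (adjusted p = 0.00582 in limma). Guanylin, Guca2a, averaged 6335 ± 114 TPM with ampicillin and 6341 ± 256 TPM with vehicle, the highest level of any transport regulator named here, and its receptor Gucy2c was not called (adjusted p = 0.531). Sgk1, a kinase that aldosterone induces, averaged 117 ± 17.1 TPM with ampicillin and 151 ± 26.9 TPM with vehicle and was not called (adjusted p = 0.137). The number of called genes was smaller when some single libraries were left out: it was 7 without vehicle replicate 1, 5 without ampicillin replicate 1, 9 without ampicillin replicate 2 and 7 without ampicillin replicate 3. Calls over all genes tested dropped too, from 2587 to 2089, 1889, 1774 and 1813 in the same order. Usp2, Chp2, Kcnk5, Ptger4 and Vipr1 stayed called in all 20 alternatives, Slc12a7 in 18, Kcne3 in 16, Kcnn4 in 14, Slc9a3r1 in 13 and Slc9a3r2 in 15 of 19.

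Cell type markers were also counted between these groups, beside 11.0% of all genes tested that rose and 10.2% that fell. Of 13 goblet cell markers 5 fell and 0 rose, and their sum ranged from 9663 to 10885 TPM with ampicillin, against 11125 to 14247 TPM with vehicle. Of 10 stem cell markers tested, Slc12a2 among them, 3 fell and 0 rose, with the 12 listed summing to 191 to 208 TPM with ampicillin, against 236 to 245 TPM with vehicle. Olfm4, too scarce to be tested, was at 0 in all ampicillin libraries, against 0.0559, 2.66 and 0.918 TPM in vehicle replicates 1 to 3. Its highest level was in vehicle replicate 2, the library that was also highest for Fabp6 of the ileum. Absorptive colonocyte markers summed to between 37248 and 39383 TPM with ampicillin and between 39067 and 42652 TPM with vehicle, 2 of 13 rising and 5 falling. Enteroendocrine markers summed to 214 to 231 TPM with ampicillin, against 265 to 373 TPM with vehicle, 2 of 9 rising and 3 falling. Endothelial markers summed to 0.887 to 1.05 TPM with ampicillin, against 3.88 to 4.48 TPM with vehicle, and Pecam1, the only one tested, fell (-1.59 ± 0.11, adjusted p = 4.02e-05 in limma). Pecam1 passed the filter only through the vehicle libraries and made up most of the vehicle sum, averaging 3.79 TPM there. The other endothelial markers did not share its fall: Vwf averaged 0.292 TPM with ampicillin and 0.320 TPM with vehicle, and Plvap 0.0799 and 0.0812 TPM in the same order. The part of these marker differences in the results for transport genes was not tested.

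The effect of tributyrin, 6 h after gavage, was read among mice that all drank ampicillin. Cftr rose 1.57-fold in mean TPM, Slc9a2 fell by 19.5%, and the other 6 genes tested did not pass. Of 8 genes 1 rose and 1 fell, beside 23.2% of all genes tested that were called in either direction. The libraries did not overlap for 4 of the 8, with Cftr, Slc26a3 and Atp1b1 higher (27.3% of all genes tested) and Slc9a2 lower (15.3%), together beside 42.6%. This comparison uses the same ampicillin libraries with mock gavage as the first, so the 2 sets of changes are not independent.

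Cftr had 59.4, 55.2 and 49.8 TPM with tributyrin, against 32.1, 33.6 and 39.0 TPM with mock. Each tributyrin library was above each mock library. The log2 fold change was 0.64 ± 0.097 (adjusted p = 0.00302 in limma), at 526 from the top among 12155 genes tested. It was called in all 20 alternatives, with adjusted p between 0.000842 and 0.0156. Slc12a2, which supplies the chloride that Cftr releases, had 65.5, 60.5 and 54.1 TPM with tributyrin, against 53.7, 59.5 and 67.2 TPM with mock. Its groups covered nearly the same range, and the interval of its log2 fold change ran from -0.21 to 0.21 (adjusted p = 0.999 in limma). The ratio of Cftr to Slc12a2 was thus 0.906, 0.913 and 0.920 with tributyrin, against 0.597, 0.564 and 0.580 with mock, and it varied little between the libraries of either group.

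Slc9a2 had 116, 106 and 111 TPM with tributyrin, against 131, 139 and 144 TPM with mock, with no overlap. It fell by 0.31 ± 0.06 on the log2 scale (adjusted p = 0.00832 in limma) and kept its call in all 20 alternatives. Slc9a3 had 102, 105 and 94.8 TPM with tributyrin, against 83.6, 74.3 and 111 TPM with mock, and replicate 3 of the mock group was the highest of these 6 libraries. The Slc9a3 difference of 0.18 ± 0.19 was not called (95% interval -0.25 to 0.61, adjusted p = 0.518 in limma). The ratio of Slc9a3 to Slc9a2 reached 0.883, 0.989 and 0.853 with tributyrin, above the 0.535 to 0.771 of the mock libraries.

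**Figure D3:**
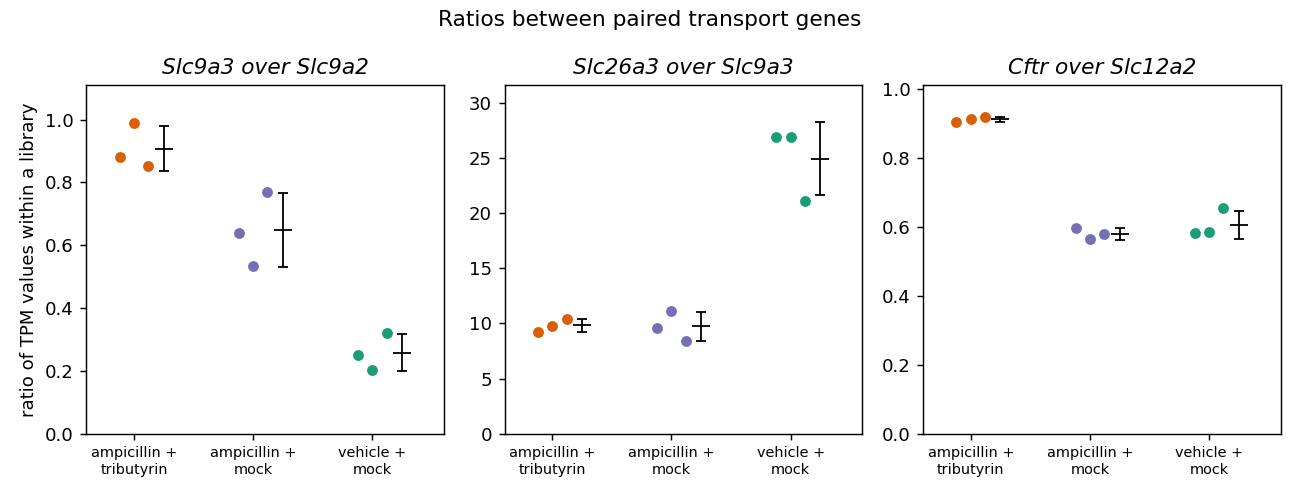
Ratio of TPM values of 2 genes within each library (points), with the mean and SD of 3 libraries (bars), for ampicillin with tributyrin, ampicillin with mock and vehicle with mock, on axes that start at 0. The ratio of Slc9a3 to Slc9a2 is lowest with vehicle, at 0.322 or less, and that of Cftr to Slc12a2 is highest with tributyrin, at 0.906 or more.

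Slc26a3 had 939, 1029 and 989 TPM with tributyrin, against 803, 826 and 938 TPM with mock. The lowest tributyrin library lay just above the highest mock library, and the difference of 0.21 ± 0.095 was not called (adjusted p = 0.149 in limma). Atp1b1 had 907, 908 and 920.2 TPM with tributyrin, against 850.0, 869 and 891 TPM with mock, likewise without overlap and not called (0.07 ± 0.055, adjusted p = 0.405). Aqp8 had 315, 456 and 426 TPM with tributyrin, against 289, 312 and 372 TPM with mock, so that replicate 1 of the tributyrin group lay among the mock libraries. Its difference of 0.29 ± 0.14 was not called (adjusted p = 0.164), and without that library it was 0.45 (adjusted p = 0.0237). Scnn1a had 26.6, 29.8 and 19.7 TPM with tributyrin, against 24.6, 25.4 and 19.4 TPM with mock, and was not called (adjusted p = 0.646).

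Of the 53 other transport genes tested, 4 rose and 6 fell with tributyrin, beside 15.6% and 7.54% of all genes tested. The median of the list was 0.07, against 0.05 over all genes tested. The genes that rose include a subunit of ENaC, a ligand, a kinase and a channel subunit of the secretory path. Scnn1b averaged 2.63 ± 0.287 TPM with tributyrin and 1.44 ± 0.177 TPM with mock (0.57 ± 0.11, adjusted p = 0.00788 in limma), still far below Scnn1a at 25.4 ± 5.17 and 23.1 ± 3.26 TPM in the same order. The ratio of Scnn1a to the sum of Scnn1b and Scnn1g was 9.41, 9.26 and 7.54 with tributyrin, against 18.1, 15.3 and 11.0 with mock.

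The guanylin pair moved in opposite directions. Uroguanylin, Guca2b, averaged 61.9 ± 1.75 TPM with tributyrin and 41.6 ± 1.37 TPM with mock (0.56 ± 0.13, adjusted p = 0.0150 in limma). Guanylin, Guca2a, averaged 5387 ± 265 TPM with tributyrin and 6335 ± 114 TPM with mock (-0.23 ± 0.055, adjusted p = 0.0174). Both peptides bind Gucy2c, whose cyclic GMP opens Cftr and inhibits Slc9a3, and Gucy2c itself was not called (adjusted p = 0.492). Kcne3 rose by 0.52 ± 0.12 (adjusted p = 0.0147), to 217 ± 31.8 TPM with tributyrin, against 150 ± 8.68 TPM with mock. Stk39, the kinase SPAK that activates Slc12a2, rose by 0.30 ± 0.052 (adjusted p = 0.00486).

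The genes that fell were Clcn2, a chloride channel, Slc9a8, an apical sodium-proton exchanger, Chp1, a cofactor of these exchangers, Aqp11, Slc9a3r1 and guanylin. Clcn2 averaged 73.0 ± 7.47 TPM with tributyrin and 98.7 ± 3.75 TPM with mock (-0.43 ± 0.078, adjusted p = 0.00592 in limma). Slc9a8 averaged 18.0 ± 1.94 and 23.3 ± 0.980 TPM in the same order (-0.36 ± 0.076, adjusted p = 0.0120), so that it and Slc9a2 were both lower with tributyrin. The number called was 6 without mock replicate 1, 6 without mock replicate 2 and 5 without tributyrin replicate 2. Over all genes tested, calls dropped from 2819 to 1756, 1681 and 1587 in the same order. Scnn1b, Clcn2, Slc9a8 and Stk39 were called in every alternative in which they were tested, Guca2b in 19 of 20, Kcne3 in 18, Guca2a in 17, Chp1 in 16, Slc9a3r1 in 14 and Aqp11 in 9.

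**Figure D4:**
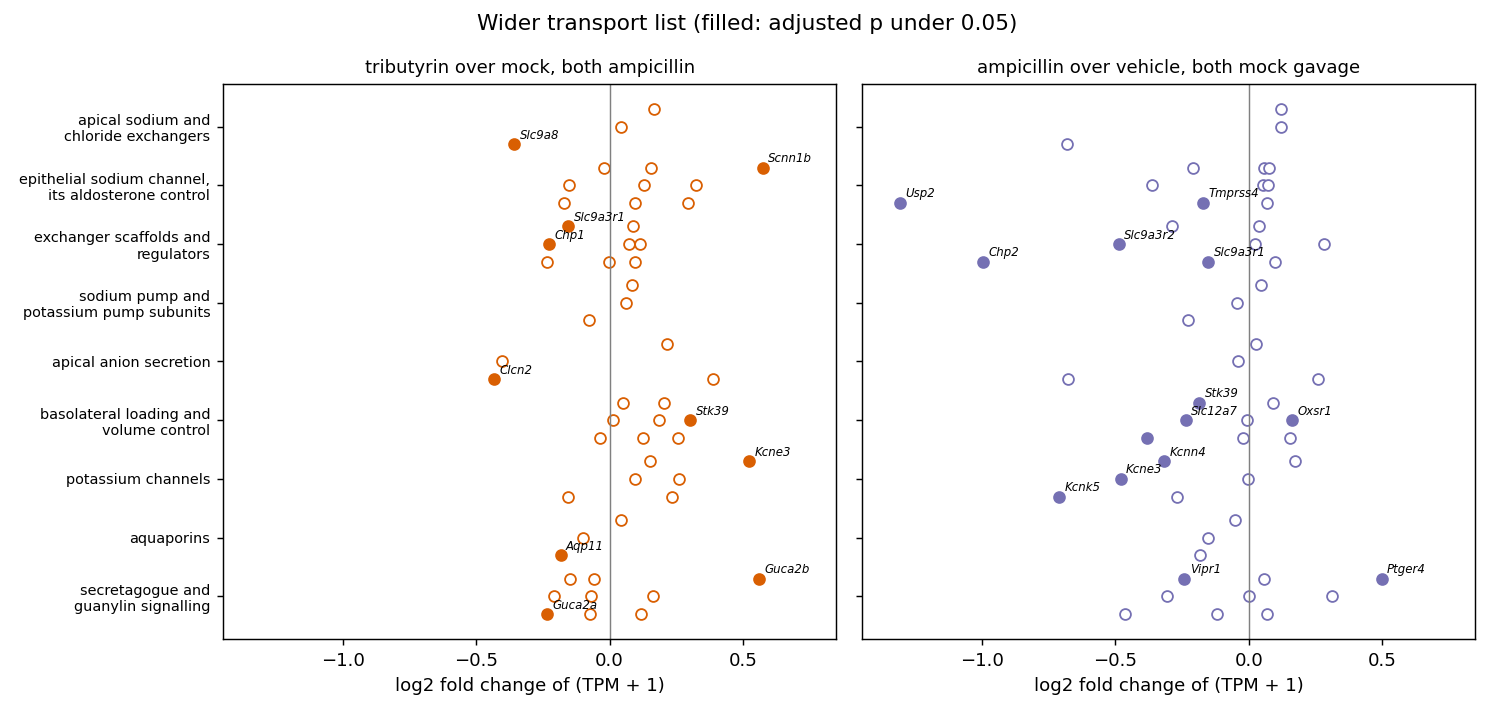
Log2 fold change of TPM + 1 of the 53 other transport genes tested (points, filled where the adjusted p is under 0.05, with the name beside all but 1 of these), by role, for tributyrin over mock at left and ampicillin over vehicle at right. With tributyrin 4 rose and 6 fell, and with ampicillin 2 rose and 12 fell, with Usp2 at -1.31 the farthest from 0.

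Markers of lymphocytes and red cells were higher in the tributyrin libraries. The counts of markers below stand beside 15.6% of all genes tested that rose and 7.54% that fell. Of 7 T cell and intraepithelial lymphocyte markers tested, 3 rose and 0 fell, and the 8 found summed to 27.01 to 49.7 TPM with tributyrin, against 14.6 to 23.8 TPM with mock. Among those tested, Gzma, Cd8a and Cd2 passed the filter only through the tributyrin libraries. The filter thus weighted the count towards rises, while the sum does not depend on it. The haemoglobin gene Hbb-bs, the only erythroid marker tested, averaged 42.6 ± 7.43 TPM with tributyrin and 8.62 ± 4.39 TPM with mock (adjusted p = 0.00460 in limma). Goblet cell markers summed to 10747 to 12229 TPM with tributyrin and 9663 to 10885 TPM with mock, 1 of 13 falling and 0 rising. Stem cell markers summed to 193 to 232 TPM and 191 to 208 TPM in the same order, 1 of 10 tested rising and 0 falling. Absorptive colonocyte markers summed to 36930 to 37410 TPM and 37248 to 39383 TPM in the same order, 3 of 13 rising and 2 falling. Pecam1 rose (0.58 ± 0.11, adjusted p = 0.00679 in limma), with 5 endothelial markers summing to 1.76 to 2.27 TPM with tributyrin, against 0.887 to 1.05 TPM with mock. Most of this sum was Pecam1, at means of 1.38 and 0.586 TPM in the same order. Enteroendocrine markers summed to 212 to 275 TPM and 214 to 231 TPM in the same order, 1 of 9 rising and 0 falling. Neurod1 among them passed the filter only with the tributyrin libraries counted, which weighted this count towards rises. The part of all these markers in the result for Cftr was not tested.

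The third comparison set ampicillin with tributyrin against vehicle, sharing libraries with both comparisons above. Slc9a3, Cftr, Slc26a3 and Atp1b1 were higher, and 0 of the 8 genes fell, beside 28.3% of all genes tested that were called in either direction. Slc9a3 averaged 101 ± 5.34 TPM with ampicillin and tributyrin and 32.7 ± 8.61 TPM with vehicle (1.62 ± 0.19, adjusted p = 0.000767 in limma), at 63 from the top among all genes tested. Atp1b1 averaged 912 ± 7.10 and 759 ± 54.1 TPM in the same order (0.27 ± 0.055, adjusted p = 0.00924). Both calls held in all 20 alternatives.

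Cftr averaged 54.8 ± 4.81 TPM with ampicillin and tributyrin and 41.1 ± 3.69 TPM with vehicle (0.41 ± 0.097, adjusted p = 0.0161 in limma). Leaving out any 1 of 3 libraries ended the call: vehicle replicate 1 (adjusted p = 0.0544), tributyrin replicate 1 (0.0546) and tributyrin replicate 2 (0.0526). Slc26a3 averaged 986 ± 45.0 and 797 ± 97.1 TPM in the same order (0.31 ± 0.095, adjusted p = 0.0396), and this call held in 10 of 20 alternatives. It was lost without vehicle replicate 1 or 2, ampicillin replicate 2 with mock, or any 1 of the tributyrin replicates, with adjusted p between 0.0602 and 0.121.

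Aqp8 averaged 399 ± 74.1 TPM with ampicillin and tributyrin and 433 ± 6.42 TPM with vehicle (-0.13 ± 0.14, 95% interval -0.45 to 0.18, adjusted p = 0.499 in limma). Slc9a2 averaged 111 ± 4.58 and 126 ± 7.18 TPM in the same order, without overlap, and just missed the threshold (-0.18 ± 0.06, adjusted p = 0.0520). Scnn1a (0.43 ± 0.16, adjusted p = 0.0847) and Slc12a2 (-0.17 ± 0.093, adjusted p = 0.197) were not called. In 5 of the 8 genes the groups were fully separate, 4 higher (28.5% of all genes tested) and 1 lower (13.2%), together beside 41.7%.

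Of the 53 other transport genes 6 rose and 13 fell in this comparison, beside 19.1% and 9.21% of all genes tested, with a median of -0.10 against 0.08. Usp2 (-1.21 ± 0.18), Chp2 (-0.90 ± 0.14) and Kcnk5 (-0.62 ± 0.079) were lower, and Scnn1b (0.63 ± 0.11) and Ptger4 (0.62 ± 0.092) higher, each called in every alternative in which it was tested. Also lower were Clcn2 (-0.41 ± 0.078), Slc9a3r2 (-0.40 ± 0.12) and Tmprss4, a membrane serine protease (-0.32 ± 0.05). Higher were Tsc22d3, a target of glucocorticoids and aldosterone (0.39 ± 0.10), and the potassium channel Kcnk1 (0.33 ± 0.067). Slc9a3r1 averaged 319 ± 7.26 TPM with ampicillin and tributyrin and 395 ± 4.21 TPM with vehicle (-0.31 ± 0.041, adjusted p = 0.00151 in limma). The number called was 12 without tributyrin replicate 2, where calls over all genes tested dropped from 3444 to 2093. Tmprss4, Clcn2, Kcnk1 and Slc9a3r1 stayed called in all 20 alternatives, Tsc22d3 in 15 and Slc9a3r2 in 9 of 19.

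Cell type markers were counted in this comparison too, beside 19.1% of all genes tested that rose and 9.21% that fell. Of 7 T and intraepithelial lymphocyte markers tested 3 rose and 0 fell, with 8 summing to 27.01 to 49.7 TPM with ampicillin and tributyrin, against 18.2 to 22.0 TPM with vehicle. Here too the filter weighted the count towards rises, as Gzma, Cd8a and Cd2 passed it only through the tributyrin libraries. Hbb-bs averaged 42.6 ± 7.43 TPM with ampicillin and tributyrin and 5.61 ± 3.07 TPM with vehicle (2.82 ± 0.38, adjusted p = 0.00151 in limma). Of 13 goblet cell markers 5 fell and 0 rose, of 8 Paneth and small intestinal markers 5 fell and 0 rose, of 10 stem cell markers 2 fell and 0 rose, and of 13 absorptive colonocyte markers 3 rose and 4 fell. The count for Paneth and small intestinal markers was weighted towards falls by the filter, since Defa24, Defa17, Defa20, Itln1 and Apoa1 passed it only through the vehicle libraries. Of 9 enteroendocrine markers 3 rose and 2 fell. This count was weighted towards rises, since Insl5 passed the filter only through the ampicillin groups and Neurod1 only with the tributyrin libraries counted. Pecam1 fell (-1.01 ± 0.11, adjusted p = 0.000495 in limma), but it passed the filter only through the vehicle libraries. Vwf, an endothelial marker too scarce to be tested, did not share the fall of Pecam1, averaging 0.482 TPM with ampicillin and tributyrin and 0.320 TPM with vehicle. Their part in the results for Slc9a3, Cftr, Slc26a3 and Atp1b1 was not tested.

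The genes whose pattern over the 9 libraries was most like that of a transport gene, by Pearson correlation of log2(TPM + 1), are given as a description, since the libraries share their treatment groups. For Slc9a3 they were Tnfaip3, Slc35b1 and Glrx, each at r = 0.98. For Cftr they were Dock11 (0.99), Creb1 (0.98) and Dhx15 (0.98). Slc9a2 was most like Cdhr5 (0.98), Bcl2l2 (0.97) and Nqo2 (0.97), and Slc26a3 most like Slfn2 (0.98), Rc3h2 (0.96) and Phf20 (0.96). Atp1b1 was most like Glrx (0.98), Isca1 (0.97) and Galnt11 (0.97), Aqp8 most like Mirt1 (0.97), Zfp949 (0.97) and Aarsd1 (0.94), Scnn1a most like Taf5l (0.98), Oser1 (0.97) and Rpl29 (0.97), and Slc12a2 most like Map4k4 (0.95), Akap13 (0.95) and Mecom (0.94). Among the transport genes themselves, Slc9a3 and Atp1b1 had the highest correlation, at 0.95, and Slc9a2 and Cftr the lowest, at -0.72.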

How the data were processed

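RNA libraries of 3 groups of 3 were compared, with groups and replicate numbers taken from the sample titles. The deposited table holds the authors' TPM values, 1 per gene in each library. The submitters' processing notes name, without roles, the build mm10 and the tools DESeq2 1.20.0 and Salmon 0.8.2. Index, strand setting and the step from transcripts to genes: not given in the sources used here. TPM sums to between 999833 and 999866 per library and keeps no depth, so no count model or counting interval was used.

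Genes with a mean TPM of at least 1 over the 9 libraries were kept, which left 12155 of 24091. Values were taken as log2(TPM + 1), and limma 3.58.1 under R 4.3.3 fitted 1 mean per group to all 9 libraries, with a variance trend, 6 residual degrees of freedom and no replicate block. P-values are two-sided with Benjamini-Hochberg adjustment over all genes tested, and the threshold was 0.05. For a single gene an exact permutation test of 3 against 3 cannot go below p = 0.1. The fit was tested on simulated data. Python 3.11.15 with matplotlib 3.10.9 drew the figures.

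The 9 genes, the list of 68 other transport genes and the marker lists were chosen with earlier results of these data known. Named are all 9 genes, in each comparison up to 10 called genes of the list by size of change and a fixed set (Scnn1b, Scnn1g, Sgk1, Slc9a3r1, Kcnq1, Kcnn4, Guca2a, Guca2b, Gucy2c and 1 more), and for each tested gene the 3 genes with the highest correlation. Of the genes so chosen, 2 are not reported here, though counts include them. Gene IDs of all 9 matched RefSeq on GRCm38.p6, the same build as mm10. Alternatives were other pseudocounts, filters, scalings and variance models, array weights, a replicate block and leaving out each library.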

Additional observations from a re-analysis of the deposited data

How the results depend on the processing

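With ampicillin against vehicle, 2 of the 8 genes were called, and the count was 1 with no filter on low values, 1 with quantile normalization, 1 with median ratio scaling, 5 with array weights, 4 with the replicate block, and 1 to 2 when any 1 library was left out. Over all genes tested, 2587 were called in the main fit, and 2564, 2802, 2692, 3505, 2707 and 1774 to 2810 under these settings in the same order. Under the block Scnn1a (adjusted p = 0.0115) and Aqp8 (adjusted p = 0.0334) were called as well in limma. Same-numbered libraries of different groups deviated together at correlations of -0.05 to 0.11, and differently numbered ones at -0.12 to 0.07. These ranges overlap and do not settle whether the numbers mark pairs. The labels state no pairing, so the main fit had no block, and the cause of these shifts was not tested. With tributyrin against vehicle the count of 4 ranged from 2 to 4 over the left-out libraries, and with tributyrin against mock the count of 2 from 2 to 3. For the wider list the ranges over left-out libraries were 5 to 15 with ampicillin, 5 to 14 with tributyrin against mock and 12 to 17 with tributyrin against vehicle, and array weights gave 19 calls for tributyrin against mock, where 10 were called. Calls over all genes tested moved as well. They ranged over left-out libraries from 1774 to 2810, 1587 to 3011 and 2093 to 3786 in the same order. Array weights gave 4271 for tributyrin against mock, where 2819 were called. Signs turned only for differences that were not called. For tributyrin against mock, Slc12a2 was at 0.050 with array weights and ranged from -0.078 to 0.081 over the left-out libraries, being above 0 without mock replicate 3 or tributyrin replicate 3. Scnn1a ranged from -0.0053 to 0.28, being at -0.00023 without mock replicate 3 and lowest without tributyrin replicate 2. Against vehicle, Aqp8 ranged from -0.24 to 0.026, above 0 without tributyrin replicate 1. Slc9a3 with ampicillin and Cftr and Slc9a2 with tributyrin kept direction and call in all 20 alternatives run. Depth is not recorded in TPM, so what depth limits could not be measured.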
